A study of Vitis vinifera with 60 samples.

Results

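Berry pericarp of Glera and Moscato bianco was compared with that of Vermentino, Garganega and Passerina at the Pea stage, when the berries are pea-sized and green. All 5 are white-skinned cultivars of Vitis vinifera. The genes described were chosen by their values at Pea: they are those whose FPKM (fragments mapped, scaled by transcript length and by library size) in both Glera and Moscato bianco lay at least 2-fold below, or at least 2-fold above, all 3 others at Pea. Folds were taken on log2(FPKM + 1), which understates differences of genes with low FPKM. The rule found 145 genes among the 29287 rows of the table: 101 were low in the pair and 44 were high. These counts are 0.485% and 0.211% of the 20833 genes that reached 1 FPKM in at least 1 column.

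The labels list 3 libraries for each cultivar at each of 4 stages (60 libraries, 15 of them at Pea), from vines grown in 1 experimental vineyard in 2011. The later stages are Touch (berries beginning to touch), Soft (softened berries) and Harv (ripe for harvest). The table holds the authors' mean of each cultivar and stage, so the spread between libraries is unknown and each value below is 1 mean. The labels name neither vines, blocks nor sampling days. Depth is unknown, and some values listed at 0 belong to genes that are abundant in other columns, so folds against groups at 0 are left out. The libraries do not mark strand, and a few rows join several identifiers (3 of the low and 2 of the high genes). The files do not pair identifiers with gene names, and 0 of them matched the reference table, so roles cannot be given and the tissue could not be checked against marker genes.

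A grape berry first grows as a hard green fruit, in which cells divide and then enlarge while acids and tannins build up. Growth then slows, and ripening starts with softening and the entry of sugar. Berries are sampled by size and feel, so cultivars that carry the same stage name need not stand at the same point of that course. The comparison asks whether the genes that set Glera and Moscato bianco apart at Pea are ones that change as green berries age.

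The values at Pea chose the genes and are given as a description, without a test. Most of the separations were moderate. The margin, the distance from the nearer cultivar of the pair to the nearest of the other 3, had a median of 1.33 on the log2 scale over the low genes and 1.31 over the high genes. It reached 4-fold in 21 low and 10 high genes, and 16-fold in 5 low and 2 high genes. In the higher of the 2 sets of cultivars, the mean at Pea ran from 1.60 to 2913 FPKM (median 16.9) over the low genes and from 1.84 to 206 FPKM (median 11.4) over the high genes. Values listed at 0 at Pea occurred in 6 low and 4 high genes. Around the limit the genes formed no gap: 33 low genes had a margin of 2 to 2.2-fold, and 49 genes outside missed the limit with 1.8 to 2-fold. For the high genes these counts were 14 and 21. Just inside, VIT_02s0025g00580 stood at 0.0769 in Glera and 0.395 FPKM in Moscato bianco, against 1.80, 3.68 and 1.84 FPKM in Vermentino, Garganega and Passerina. Just outside, VIT_00s0194g00260 stood at 4.35 and 4.60 FPKM in the pair, against 12.4, 20.8 and 10.2 FPKM in the same 3. On the high side, VIT_03s0097g00210 lay just inside, with 133 in Glera and 139 FPKM in Moscato bianco against 57.1, 66.0 and 47.0 FPKM. VIT_18s0041g00390 lay just outside, with 68.3 and 32.4 FPKM in the pair against 4.53, 4.09 and 15.8 FPKM.

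Within the pair, Glera had the lower value in 62 of the 101 low genes and Moscato bianco in 36, while 3 were equal. The median difference between them (Glera minus Moscato bianco) was -0.06 on the log2 scale. The pair themselves differed by at least 2-fold in 16 low genes, with Glera lower in 9 and Moscato bianco lower in 7. Among the 44 high genes Glera was lower in 26 and Moscato bianco in 18.

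The low genes fell into classes by their later course. In 61 of 101, FPKM at Touch stood at least 2-fold under that at Pea in all 3 other cultivars, and the margin was not kept at all later stages. A further 10 kept the 2-fold margin at Touch, Soft and Harv, and 30 did neither. For the high genes, 8 of 44 stood at least 2-fold higher at Touch than at Pea in all 3 others, 9 kept the margin throughout, and 27 did neither. Over all genes, 3.7% stood at least 2-fold lower and 1.44% at least 2-fold higher at Touch in all 3 others. Nothing is read from the comparison of these shares, because the Pea columns of those cultivars also chose the genes.

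The gene with the widest margin on the low side was VIT_01s0011g05180. At Pea it stood at 3.80 in Glera and 4.85 FPKM in Moscato bianco, against 586 in Vermentino, 178 in Garganega and 808 FPKM in Passerina. At Touch it stood at 4.13 and 1.65 FPKM in the pair, against 1116, 149 and 359 FPKM in the same 3. The groups did not overlap at any stage. At Soft the pair had 0.0937 and 0.301 FPKM and the others 228, 267 and 123 FPKM, and at Harv the pair had 0.0805 and 0.0844 FPKM and the others 5.77, 13.3 and 9.32 FPKM.

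VIT_13s0019g01520 and VIT_19s0027g01810 were low in the pair at Pea and near 0 everywhere afterwards. VIT_13s0019g01520 stood at 7.91 in Glera and 7.12 FPKM in Moscato bianco, against 171, 178 and 185 FPKM in Vermentino, Garganega and Passerina. At Touch its values were 0.0316 FPKM in Glera and listed at 0 in Moscato bianco, against 0.614, 0.186 and 0.208 FPKM in the others. At Soft and Harv no column exceeded 0.512 FPKM. The values of VIT_19s0027g01810 at Pea were 7.02 and 8.52 FPKM in the pair, against 172, 247 and 183 FPKM, and no later column exceeded 0.493 FPKM. In both genes all 5 cultivars lost nearly all of their FPKM by Touch, and the pair stood lower than the others at Pea. No stage before Pea was sampled, so whether the pair had stood higher earlier is unknown.

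Other low genes also stayed near 0 after Pea. Of the 101, 24 stayed under 1 FPKM in all 15 later columns. Over all genes, 20038 of the 20833 that reached 1 FPKM in any column did so in a later one. In the class lower at Touch in all 3 others were 22 of the 24, which the rule largely sets. It requires at least 1 FPKM at Pea in each of the 3 others. The median of the 24 at Pea was 0.652 in Glera and 0.893 FPKM in Moscato bianco, against 5.52 in Vermentino, 8.99 in Garganega and 5.58 FPKM in Passerina. Over the whole class of 61 genes the medians at Pea were 1.87 and 2.90 FPKM in the pair, against 13.0, 21.8 and 15.7 FPKM. At Touch the medians were 0.440 in Glera and 0.190 FPKM in Moscato bianco, against 0.417, 0.703 and 0.694 FPKM, so the cultivars stood close together.

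At Pea the pair mostly stood between the Pea and the Touch levels of the others. Of the 61 genes, 51 had a Glera value at Pea above all 3 Touch values of the other cultivars, 6 had one within their range, and 4 had one below it. For Moscato bianco the counts were 46, 9 and 6. Measured on the step from the mean Pea to the mean Touch level of the 3 others, on the log2 scale, Glera at Pea lay 74.0% of the way (quartiles 61.1% and 91.0%) in the median gene. Moscato bianco lay 63.0% of the way (52.6% and 84.1%). The rule selects low values of the pair at Pea, which raises these shares. It also puts the pair under the Pea values of the others, and Touch values near 0 leave little room below. Standing between these levels was thus largely set by the choice of genes, and nothing is read from the counts. From Pea on, the pair still moved in the same direction: at Touch, 25 of the 61 genes in Glera and 38 in Moscato bianco stood at least 2-fold under their own Pea value, and 0 stood 2-fold above it.

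**Figure D1:**
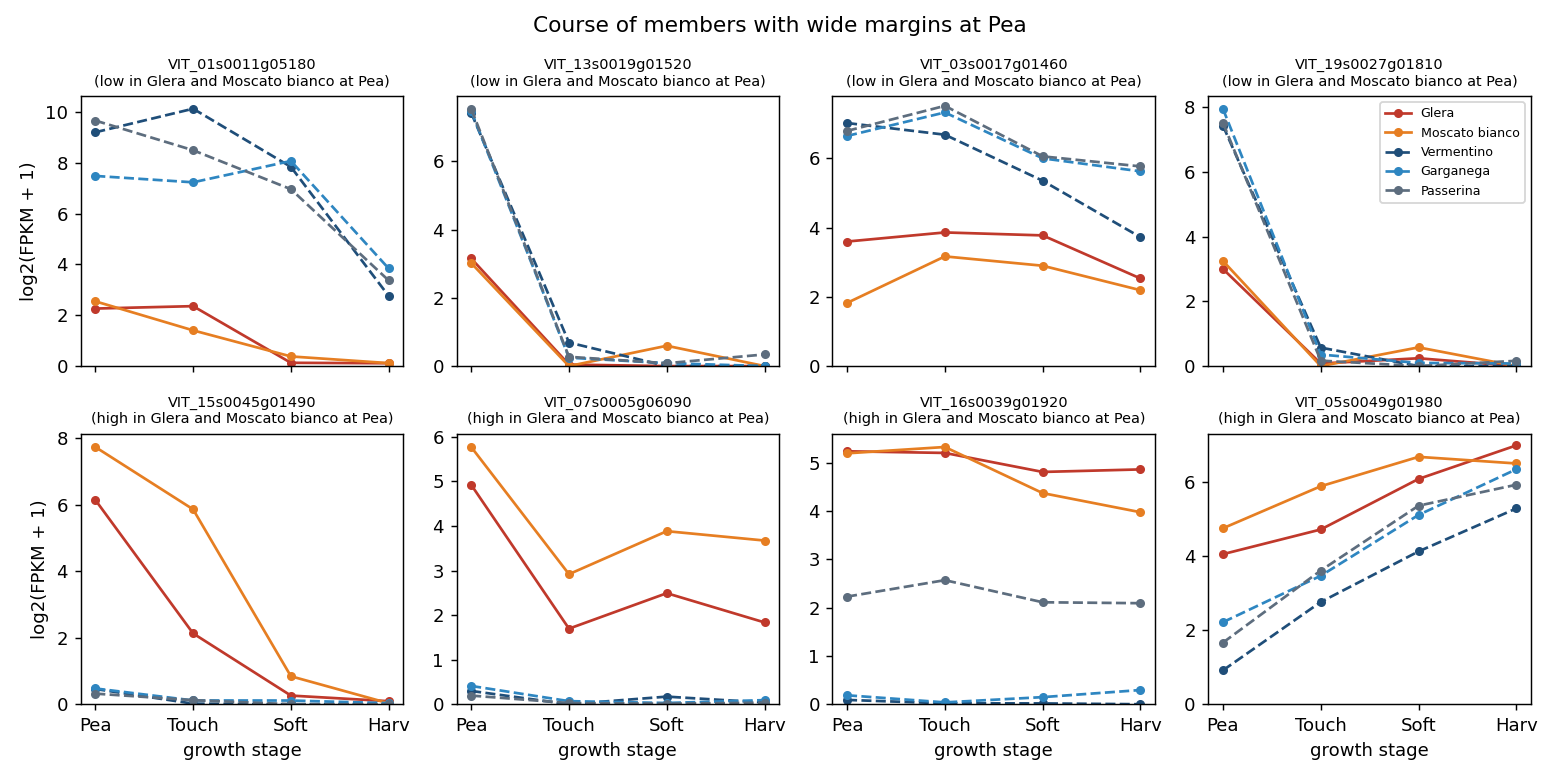
Values of 8 genes with wide margins, as log2(FPKM + 1) at the 4 stages, with a line for each cultivar (solid for Glera and Moscato bianco, dashed for the other 3; 1 mean of the authors per point). In VIT_13s0019g01520 and VIT_19s0027g01810 the lines meet near 0 from Touch on, in VIT_01s0011g05180 and VIT_16s0039g01920 they stay apart, and in VIT_15s0045g01490 the pair comes down to the others by Soft.

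Genes of the second class were low in the pair at every stage. After VIT_01s0011g05180, the widest margin among those with at least 10 FPKM in each of the other cultivars and no value of 0 at Pea belonged to VIT_03s0017g01460. It stood at 11.1 in Glera and 2.54 FPKM in Moscato bianco at Pea, against 129, 99.2 and 110 FPKM in Vermentino, Garganega and Passerina. The values at Touch were 13.5 and 7.99 FPKM in the pair, against 102, 159 and 182 FPKM. By Harv they were 4.78 and 3.57 FPKM, against 12.2, 48.3 and 53.5 FPKM. The pair stayed below the others in each stage, and Vermentino came nearest to them at Harv. In 5 of these 10 genes Glera and Moscato bianco were under 1 FPKM in all 8 of their columns.

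Among the high genes, VIT_15s0045g01490 had the widest margin of all, with 69.9 in Glera and 213 FPKM in Moscato bianco at Pea, against 0.374, 0.390 and 0.247 FPKM in Vermentino, Garganega and Passerina. It stood at 3.38 and 57.2 FPKM in the pair at Touch, against at most 0.0886 FPKM in the others, and no column exceeded 0.792 FPKM at Soft. This gene was thus present in green berries of the pair and close to 0 in the other cultivars at every stage sampled.

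VIT_07s0005g06090 and VIT_16s0039g01920 were high in the pair at all stages. VIT_07s0005g06090 stood at 29.3 in Glera and 53.6 FPKM in Moscato bianco at Pea and at 2.24 to 13.7 FPKM in the pair later, against at most 0.329 FPKM in any column of the other 3. VIT_16s0039g01920 stood at 36.7 and 35.6 FPKM in the pair at Pea, against 0.0638 in Vermentino, 0.137 in Garganega and 3.68 FPKM in Passerina. Passerina kept an intermediate level of 3.26 to 4.93 FPKM from Touch to Harv, while the pair stood at 14.7 to 39.1 FPKM. In 3 of the 9 high genes that kept their margin, the other cultivars were under 1 FPKM in all 12 of their columns.

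Among the 8 high genes that stood higher at Touch in all 3 others, the median at Pea was 19.5 in Glera and 16.6 FPKM in Moscato bianco, against 4.57, 2.76 and 2.38 FPKM in Vermentino, Garganega and Passerina. At Touch it was 112 and 73.9 FPKM in the pair, against 70.9, 48.9 and 57.6 FPKM. VIT_05s0049g01980 went up at every step in each cultivar except Moscato bianco, where it stood lower at Harv than at Soft. It stood at 15.6 in Glera and 25.9 FPKM in Moscato bianco at Pea, against 0.887, 3.64 and 2.17 FPKM in the same order as before. At Touch its values were 25.3 and 58.1 FPKM in the pair, against 5.77, 10.1 and 11.2 FPKM. At Harv it stood at 126 and 89.5 FPKM in the pair, against 38.0, 80.2 and 59.8 FPKM, where Moscato bianco and Garganega lay close together. VIT_18s0041g00370 peaked at Touch. It stood at 23.5 and 16.1 FPKM in the pair at Pea, against 4.83, 1.53 and 5.55 FPKM, and at 337 and 179 FPKM at Touch, against 236, 75.7 and 607 FPKM, where the groups overlapped.

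The columns of Touch, Soft and Harv did not enter the choice of genes. The same 2-fold rule was met again, in the same direction, by 25 of the 101 low genes at Touch, 12 at Soft and 13 at Harv. Over all genes with at least 1 FPKM it was met in that direction by 0.269%, 0.187% and 0.336%. Of the 44 high genes, 17 met it again at Touch, 15 at Soft and 10 at Harv, against 0.158%, 0.254% and 0.206% of all genes. The opposite margin was found for 0 members at Touch and Harv and for 1 low gene at Soft. Thus 75 low and 24 high genes met the rule at Pea alone. A gene under 1 FPKM in every column of a stage cannot meet the rule there, with 1 added to each FPKM. At Touch this held for 32 low and 2 high genes, and in all later columns for 24 low and 0 high genes. The counts of low and high genes that met the rule again are therefore not compared.

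The gap, the mean log2 value of the pair minus that of the other 3, lay nearer to 0 at Touch over the low genes than over the high ones. Its median over the low genes was -2.08 at Pea, -0.45 at Touch, -0.05 at Soft and -0.08 at Harv. Over the high genes it was 2.05, 1.34, 0.56 and 0.21. All genes with at least 1 FPKM had medians between -0.03 and -0.01 at these stages. The contrast between low and high genes at Touch depended in part on low FPKM. Under 1 FPKM in all Touch columns were 32 of the 101 low genes and 2 of the 44 high genes. Over the 77 low genes with 1 FPKM in a later column, the Touch median was -0.89, against 1.34 over the high genes. With a pseudocount of 0.1 these medians were -1.36 and 1.62. The classes were defined with the Touch values, so the gap at Touch by class only describes them: its median was -0.19 over the low genes that were lower at Touch in all 3 others and -3.08 over the 10 that kept their margin. The remaining 30 stood at -1.43 at Touch and -0.25 at Harv.

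**Figure D2:**
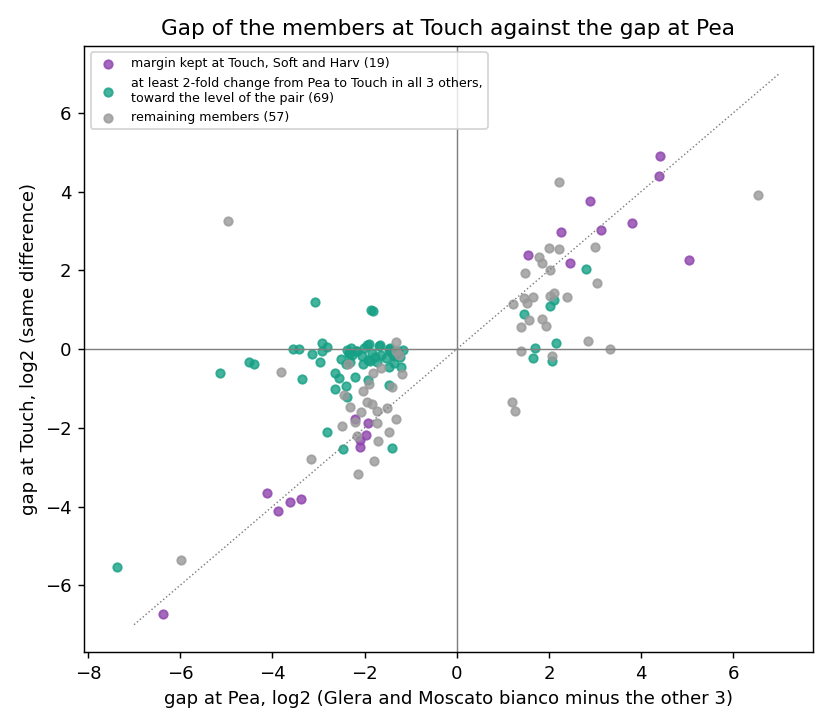
Gap of each of the 145 genes at Touch against its gap at Pea, both as log2 differences (Glera and Moscato bianco minus the other 3), coloured by course, with the line of equal gaps dotted. The genes that moved in all 3 others (69) lie mostly near a Touch gap of 0, while the 19 that kept their margin lie along the dotted line; both classes were defined with the Touch values.

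A test on the later columns alone called very few genes. With the cultivar as the replicate (2 against 3) and each cultivar's mean over Touch, Soft and Harv, limma called 2 of 20038 genes at a Benjamini-Hochberg adjusted p under 0.05 and at least 2-fold. That is 0.00499% in each direction, and 1045 genes had an unadjusted p under 0.05. Both called genes are among the 145. VIT_01s0011g05180 was lower in the pair, with a log2 difference of -5.77 (SE 0.23, limma adjusted p = 0.0212). The high gene was VIT_10s0116g00040, at 18.1 in Glera and 15.9 FPKM in Moscato bianco at Touch. It was listed at 0 in Vermentino and Garganega at all stages, and at 1.38 FPKM at Touch and 0 at Soft and Harv in Passerina. At Soft it stood at 35.1 and 40.5 FPKM in the pair, and at Harv at 53.3 and 24.3 FPKM (limma adjusted p = 0.0284).

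Neither call held with a cultivar left out, although the differences stayed close in size. Over the 5 runs without 1 cultivar the log2 difference was -5.89 to -5.58 for VIT_01s0011g05180 and 4.57 to 4.93 for VIT_10s0116g00040, against -5.77 and 4.75 with all 5 cultivars. Without Glera or Moscato bianco the pair is a single cultivar, which is assumed to vary like the others. The limma adjusted p was 0.0609 to 0.460 for VIT_01s0011g05180 and 0.0808 to 0.460 for VIT_10s0116g00040 over the same runs. Without the filter on low FPKM the values were 0.154 and 0.182, and over all alternatives they ran from 0.00578 and 0.0161 upward. The sizes depended on the pseudocount. For VIT_10s0116g00040, with the others at 0 in nearly all later columns, the log2 difference was 7.73 with 0.1 and 2.72 with 5. Neither run called it (limma adjusted p = 0.0580 and 0.0619). For VIT_01s0011g05180 it was -7.42 and -4.14, and only the first was called (limma adjusted p = 0.00578 and 0.0726). At Touch alone, limma called 0 of 20038 genes in either direction (0% each), with 945 at an unadjusted p under 0.05 and a smallest adjusted p of 0.281. With 3 residual degrees of freedom these tests resolve only differences that are large against the spread between cultivars. Of the low genes, 77 passed the filter of 1 FPKM in a later column, as did all 44 high genes.

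The changes after Touch were tested with cultivar as a term and without the Pea columns. From Touch to Soft, the onset of ripening, 5 of 77 low genes rose and 16 fell (limma, adjusted p under 0.05 and at least 2-fold), against 3.72% and 15.8% of all 20038 genes tested. Of the 44 high genes 3 rose and 9 fell. This balance depended on the scaling of the columns: with columns scaled to equal medians 6 high genes rose and 9 fell, and with quantile normalization 7 rose and 6 fell. Over all genes the median change in this step was -0.33 on the log2 scale, and it became 0.09 with equal medians, where 6.95% of genes rose and 8.78% fell. From Soft to Harv, 6 low genes rose and 8 fell, and 2 high genes rose and 6 fell, against 2.03% and 5.27% of all genes. VIT_11s0118g00420 rose from Touch to Soft by 3.61 (SE 0.33, adjusted p = 9.93e-06). It stood at 81.5 in Glera and 66.1 FPKM in Moscato bianco at Soft, against 25.8, 63.1 and 59.3 FPKM in Vermentino, Garganega and Passerina. At Touch all 5 cultivars had stood between 0.471 and 6.79 FPKM, and at Pea the pair had stood at 5.40 and 2.81 FPKM against 12.1, 20.0 and 18.3 FPKM. VIT_03s0038g02050, also low at Pea, fell by 1.84 from Touch to Soft (SE 0.17, adjusted p = 1.07e-05). It stood at 3.12 and 1.51 FPKM at Touch in the pair, against 4.19, 3.39 and 4.11 FPKM, and at most 0.257 FPKM in any column at Soft. With a pseudocount of 5 it fell by 0.67, which is under 2-fold.

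Among the high genes, VIT_00s0187g00050 fell by 3.45 from Touch to Soft (SE 0.22, adjusted p = 1.04e-06) and VIT_18s0041g00370 fell by 4.12 (SE 0.31, adjusted p = 2.62e-06). VIT_00s0187g00050 stood at 230 and 89.7 FPKM at Touch in the pair, against 172, 91.7 and 348 FPKM. Its values at Pea were 26.6 and 17.1 FPKM in the pair, against 7.76, 3.70 and 2.67 FPKM, and at Soft no column exceeded 27.7 FPKM. From Soft to Harv VIT_11s0016g05840 fell by 4.44 (SE 0.51, adjusted p = 0.000302). It was an abundant low gene at Pea, with 615 and 503 FPKM in the pair against 1457, 1536 and 1442 FPKM. At Touch it stood at 63.6 and 94.8 FPKM in the pair, against 465, 548 and 349 FPKM. VIT_00s0414g00030, another low gene, fell by 1.56 from Soft to Harv (SE 0.27, adjusted p = 0.00186). VIT_04s0023g03130, a high gene, rose by 1.14 from Soft to Harv (SE 0.14, adjusted p = 0.000399), to 575 and 535 FPKM in the pair against 487, 377 and 453 FPKM. At Pea it had stood at 51.8 and 48.2 FPKM in the pair, against 15.7, 18.7 and 18.6 FPKM. VIT_00s0187g00050 fell again by 1.77 (SE 0.22, adjusted p = 0.000415).

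The change from Pea to Touch was next compared over all members in each cultivar, as a description. At Touch, 29 of the 101 low genes in Glera and 42 in Moscato bianco stood at least 2-fold under their Pea value, against 74 in Vermentino, 67 in Garganega and 68 in Passerina. Over all genes the shares were 5.79% in Glera and 8.27% in Moscato bianco, against 8.31%, 6.56% and 7.1% in the same 3. The median change over the low genes was -0.43 in Glera and -0.75 in Moscato bianco, against -2.19, -2.06 and -1.98. For the high genes, 9 in Glera and 13 in Moscato bianco stood at least 2-fold higher at Touch, against 16, 10 and 18 in the others. In the pair the high genes went the other way about as often: 9 in Glera and 11 in Moscato bianco stood at least 2-fold lower at Touch, against 4, 3 and 3. Of the low genes, 5 in Glera and 6 in Moscato bianco stood at least 2-fold higher at Touch, against 0, 0 and 1. For shares at least 2-fold higher, all genes gave 2.56% and 3.58% in the pair, against 4.17%, 2.88% and 5.25%. Each of these changes contains a Pea value that chose the genes.

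**Figure D3:**
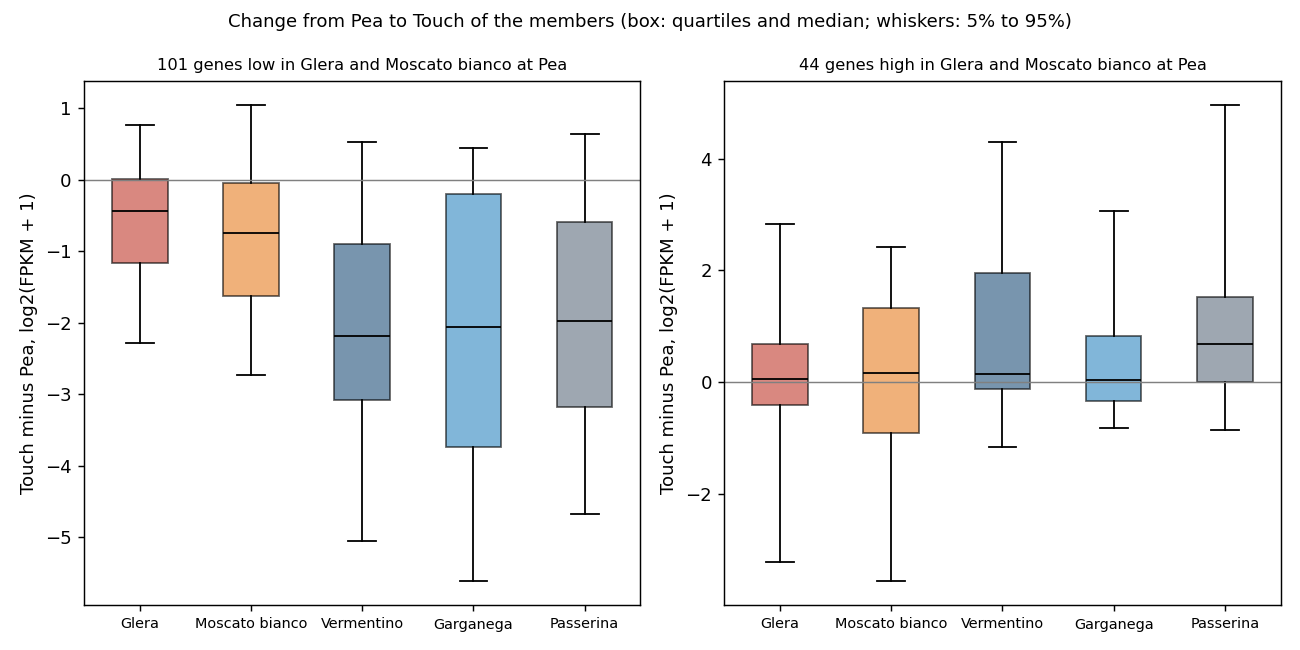
Change from Pea to Touch (Touch minus Pea, log2(FPKM + 1)) of the 101 low and the 44 high genes in each cultivar; boxes give quartiles and median over genes, whiskers the 5% and 95% points. The boxes of the low genes lie lower in Vermentino, Garganega and Passerina (medians -2.19, -2.06 and -1.98) than in Glera and Moscato bianco (-0.43 and -0.75).

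To free the change from that choice, the genes were chosen again with 1 cultivar left out, and the change was taken in the cultivar that had not been used. Genes chosen as low without Vermentino numbered 217, and 53.0% of them stood at least 2-fold lower at Touch in Vermentino, against 8.31% of all genes. In Garganega it was 54.1% of 157 genes, against 6.56%, and in Passerina 56.0% of 168 genes, against 7.1%. The median changes in the unused cultivar were -1.15 in Vermentino, -1.38 in Garganega and -1.24 in Passerina. Genes low in Moscato bianco against the 3 others were chosen without regard to Glera. Of these 292, 27.7% stood at least 2-fold lower at Touch in Glera (all genes 5.79%). Genes low in Glera were chosen likewise, without regard to Moscato bianco. Of these 335, 35.2% stood at least 2-fold lower at Touch in Moscato bianco (all genes 8.27%). Both sets hold the 101 low genes. Genes chosen as high stood at least 2-fold higher at Touch in 29.4% of 119 cases in Vermentino, 30.6% of 111 in Garganega and 22.8% of 101 in Passerina, against 4.17%, 2.88% and 5.25% of all genes. Genes that stood the other way were fewer on the low side (1.38%, 0.637% and 5.95% higher at Touch in those 3), but 18.8% of the high genes chosen without Passerina stood lower at Touch in it. Genes chosen as high without Glera or without Moscato bianco went both ways about equally often. In Glera 34 of 240 such genes stood at least 2-fold higher and 29 at least 2-fold lower at Touch, and in Moscato bianco 38 of 238 stood higher and 39 lower. Each cultivar gives 1 value, so these shares have no test. The shares of all genes are also not matched for level. Genes chosen as low had at least 1 FPKM at Pea in each of the higher cultivars used. All genes include some under 1 FPKM at Pea, which cannot fall 2-fold on this scale. The excess over all genes is therefore overstated on the low side by an unknown amount.

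The whole profile was then placed on the line from Pea to Touch. For each cultivar the line joined 2 averages of the other 4, their Pea profile (0%) and their Touch profile (100%), over 20833 genes. At Pea, Glera lay at 31.1% and Moscato bianco at 16.7%, against -4.54% in Vermentino, -9.62% in Garganega and -12.2% in Passerina. Since each cultivar is placed against the rest, a cultivar further along also moves the others down. Without the 145 genes the positions were 29.0% and 13.7%, against -2.87%, -7.32% and -11.0%, so the order did not rest on them alone. The pair was itself chosen from Pea values, and leaving out these genes does not undo that choice. The positions at Pea are therefore a description without a test. On a line drawn from Vermentino, Garganega and Passerina alone, the pair lay at 39.3% and 25.9%. Each of these 3 was placed on the line of the remaining 2, not on that same line, and lay at 12.4%, 4.78% and 1.88%.

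The Touch columns did not enter the choice, but the line on which they are placed rests on Pea columns that did. The positions and permutation p values from Touch on are therefore not free of that choice. At Touch, Glera lay at 107% and Moscato bianco at 109%, against 95.3% in Vermentino, 72.9% in Garganega and 87.3% in Passerina. The pair averaged 108% ± 1.2 (SD, n = 2 cultivars) and the others 85.1% ± 11.4 (SD, n = 3 cultivars). All of the pair lay above all of the others, with an exact two-sided permutation p of 0.2, the smallest that 2 against 3 cultivars allow. At Soft the groups overlapped, with 117% and 105% in the pair against 122%, 106% and 123% (exact permutation p = 0.4). At Harv the means were 122% in the pair and 129% in the others (exact permutation p = 0.4).

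**Figure D4:**
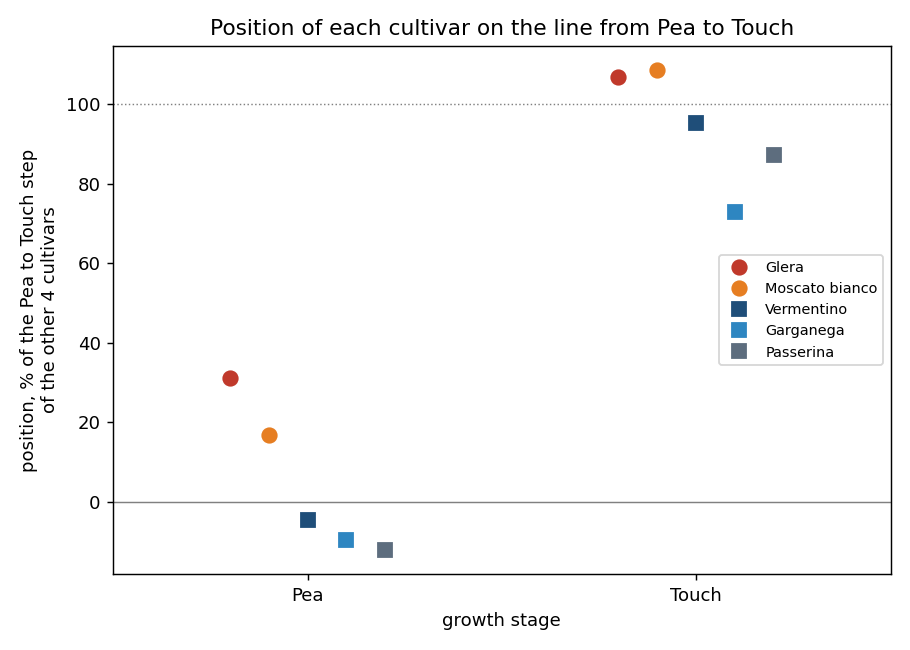
Position of each cultivar at Pea and at Touch on the line that joins the average Pea (0%) and Touch profiles (100%) of the other 4 cultivars, over 20833 genes (circles for Glera and Moscato bianco, squares for the other 3). At Pea, Glera (31.1%) and Moscato bianco (16.7%) lie above the other 3, which lie between -12.2% and -4.54%.

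Finally, differences at Pea were set against the Pea to Touch change of a cultivar outside the pair compared, so that the quantities share no column. The percentages below give only the component of a Pea difference that runs along that change, not the full size of the difference. For Glera minus 1 of the 3 others, it was 19.1% to 36.5% of the Pea to Touch change of another of the 3. The correlations across 20833 genes were 0.22 to 0.35 over 6 pairings. With correlations this low, most of the difference did not run along the change. Moscato bianco minus 1 of the 3 gave 14.1% to 22.7%, with correlations of 0.17 to 0.21. The change of the other cultivar of the pair served in 6 further pairings. Glera minus 1 of the 3 gave 13.2% to 16.4% of the change of Moscato bianco (correlations 0.15 to 0.17), and Moscato bianco minus 1 of the 3 gave 11.4% to 15.9% of the change of Glera (correlations 0.11 to 0.13). Glera minus Moscato bianco gave 4.98% to 14.7% over the 3 possible cultivars, a range that overlaps these. Among Vermentino, Garganega and Passerina, the 9 pairings gave -1.70% to 5.29%, with correlations of -0.01 to 0.05. Genes are not independent replicates, and pairings share columns among themselves. Glera and Moscato bianco were also set apart by their Pea values, so these values are descriptions.

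The differences ran in both directions of the step. In genes that stood at least 2-fold lower at Touch in another of the 3, the median of Glera minus 1 of the 3 at Pea was -0.60 to -0.42 on the log2 scale. In genes at least 2-fold higher at Touch it was 0.21 to 0.63. For Moscato bianco the medians were -0.44 to -0.27 and 0.06 to 0.42. In genes chosen by the change of the other cultivar of the pair they were -0.36 to -0.23 and 0.11 to 0.22 for Glera, and -0.31 to -0.15 and 0.12 to 0.26 for Moscato bianco. The counts of genes past 2-fold in each cultivar are those given above as shares. On the line used before, Glera lay at 31.1% and Moscato bianco at 16.7% at Pea, while at Touch their positions were within 2 percentage points of each other. In the pairings, Glera minus Moscato bianco gave 4.98% to 14.7%. The lowest of these lay within the range among the 3 others (-1.70% to 5.29%). Whether Glera was further in development than Moscato bianco was not tested.

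**Figure D5:**
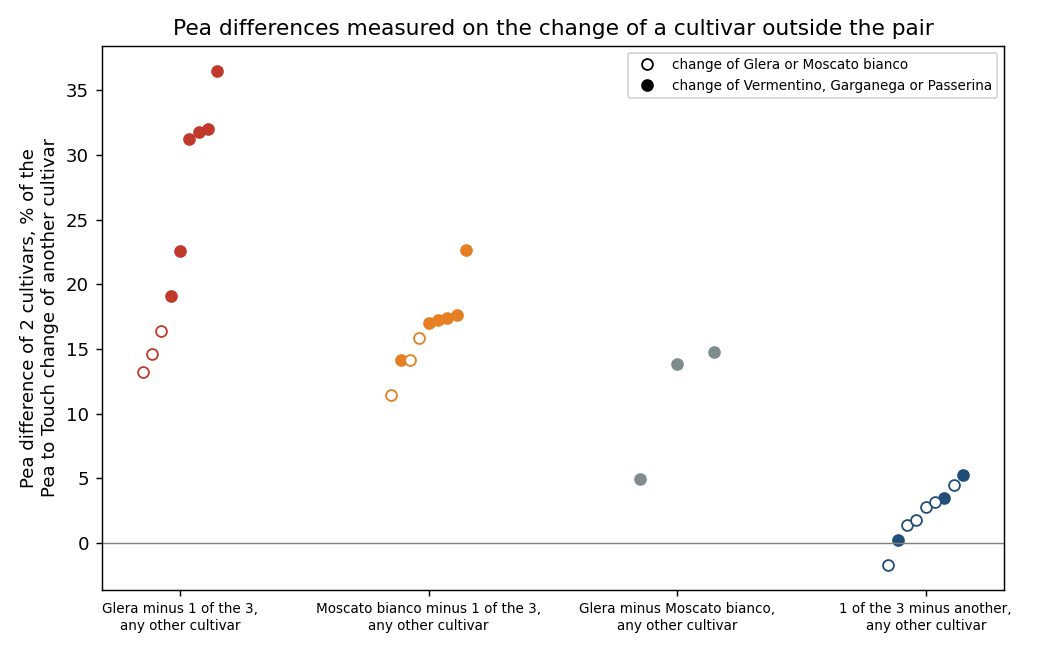
Component of the difference of 2 cultivars at Pea along the Pea to Touch change of a cultivar outside that pair, as a percentage of that change. Values are over 20833 genes, with 1 point for each pairing (9, 9, 3 and 9 points). Points are open where the change is that of Glera or Moscato bianco. The points for Glera (13.2% to 36.5%) and Moscato bianco (11.4% to 22.7%) against 1 of the 3 lie above those among the 3 others (-1.70% to 5.29%).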

How the data were processed

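RNA of berry pericarp (entire berries without seeds) was sequenced from non-directional libraries, per the labels' protocols. The authors deposited 1 table of FPKM with 20 columns, each a mean for 1 cultivar and stage per the file headers. TopHat2 2.0.6 and Cufflinks 2.0.2 are named in the submitters' processing notes; what each did, and the genome build and annotation, is not given in the sources used here. Each column was assigned by its name, and 0 were left over.

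Values were taken as log2(FPKM + 1). Differences at Touch and later were tested with limma 3.58.1 (trend) in R 4.3.3, with the cultivar as replicate, after a filter of 1 FPKM in at least 1 of the 15 later columns. Stage changes had cultivar as a term (8 residual degrees of freedom). The procedure was checked on simulated data. Other steps used Python 3.11.15 and numpy 2.4.6. Alternatives were pseudocounts of 0.1 and 5, margins of 1.5-fold and 4-fold, other filters, columns scaled to equal medians, quantile normalization, and each cultivar left out.

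The genes, classes and comparisons were chosen with earlier results of these data known. Named are at most 2 low and 2 high genes per class, with the widest margin among genes with at least 10 FPKM in the higher cultivars and no 0 at Pea, the genes next to the limit, and the called members with the smallest adjusted p. The planned gene lists and marker lists were not run, since the identifiers have no names here. The smallest two-sided p of a 2 against 3 permutation had been planned as 0.1 and is 0.2 with the test used.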

Additional observations from a re-analysis of the deposited data

Results flagged for a closer look

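The change from Pea to Touch over the 44 high genes had a median of 0.69 on the log2 scale in Passerina, far above the other cultivars (0.05 in Glera and 0.16 in Moscato bianco, 0.14 in Vermentino and 0.04 in Garganega). It was the only set of 5 cultivars, of 10 searched, with such a distant value. Chance alone singles out about 1 set in 20 where sets are independent, but these share genes and columns. The change also contains the Pea values that chose the genes, so nothing is read from it. By count, 18 high genes stood at least 2-fold higher at Touch in Passerina and 16 in Vermentino. Over all genes Passerina also had the largest such share, 5.25%.

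In 3 of 16 named genes both cultivars of the pair moved one way in a step and all 3 others the opposite way; these differences were not tested. VIT_11s0118g00420 went up from Pea to Touch in Glera and Moscato bianco, with a mean log2 change of 0.49, against -2.30 in the other 3; its Pea values chose the gene. VIT_19s0027g01810 had a mean change of 0.37 from Touch to Soft in the pair, against -0.33 in the others, at values of at most 0.493 FPKM. VIT_00s0414g00030 had 0.13 in the pair over the same step, against -0.29 in the others.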

How the results depend on the processing

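How many genes met the rule depended on its settings. The sets with a pseudocount of 0.1, with a 1.5-fold margin and with a cultivar left out held all 145. This was certain in advance, because each of these settings only makes the rule easier to meet. Quantile normalization gave 89 low and 53 high genes, of which 85 and 43 were among the 145, and equal medians gave 84 and 43, of which 84 and 42 were. With a pseudocount of 0.1 there were 264 low and 116 high genes, and with a 1.5-fold margin 290 and 144. A pseudocount of 5 gave 37 and 19, and a 4-fold margin 21 and 10. Leaving out a cultivar makes the rule easier to meet and gave 157 to 335 low and 101 to 240 high genes.

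With a pseudocount of 5, 15.8% of the high genes met the rule again at Soft and 10.5% at Harv, as did 8.11% of the low genes at Harv. With a 4-fold margin 23.8% of the low genes did so at Soft. The median change of low genes chosen without the cultivar concerned became -0.16 in Glera and -0.72 in Garganega with a pseudocount of 5, and -0.090 in Glera and -2.49 in Passerina with a 4-fold margin. Of high genes chosen with that margin, 5% stood higher at Touch in Vermentino and 10% in Garganega, of 20 genes each.

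The distance of the pair from the other 3 at Pea on the line to Touch was 32.7 percentage points. It was 28.4 without the 145 genes and 26.3 on lines drawn from the 3 others alone, an alternative chosen after seeing the data. The gap over the later stages called 5 genes with a pseudocount of 0.1, with equal medians and with quantile normalization, 0 with a pseudocount of 5 and without a filter, and 0 to 1 with a cultivar left out. From Touch to Soft, 2116 genes were called with a pseudocount of 5 in place of 3906. From Soft to Harv, 2726 were called with a pseudocount of 0.1 and 657 with 5, in place of 1463. The cause of these shifts was not tested. The median Touch to Soft change of all genes was 0.09 with equal medians, in place of -0.33, and 1392 genes rose and 1759 fell, in place of 745 and 3161.

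Medians over all genes changed sign with equal medians and quantile normalization for the Touch to Soft change (0.09 and 0.05), the Soft to Harv change (0.05 and 0.04, in place of -0.02) and the later gap (0.02 and 0.01, in place of -0.03). No named gene's tested change or gap, no position difference at Pea or Touch and no median change of the genes chosen without a cultivar changed direction. No paired analysis was possible because each column is the mean of 3 libraries and carries no replicate number; this concerns pairs of libraries, and stage changes were fitted with cultivar as a term. Unknown depth and spread between libraries limit all values under a few FPKM.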

Other observations

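Several low genes had neighbouring identifiers, noticed after their values were seen. Of the 5 rows numbered from VIT_01s0011g05150 to VIT_01s0011g05220, 4 were low in Glera and Moscato bianco at Pea. The limits of this run were also set with the values known. VIT_01s0011g05110, numbered shortly before it, was a high gene, so nearby identifiers did not all go the same way. The most abundant of the 4, VIT_01s0011g05170, stood at 107 in Glera and 1.69 FPKM in Moscato bianco at Pea, against 2896, 1947 and 3897 FPKM in Vermentino, Garganega and Passerina. At Touch it stood at 86.3 and 0.915 FPKM in the pair, against 664, 705 and 461 FPKM. The row that was no member, VIT_01s0011g05190, stood at 228 and 377 FPKM in the pair at Pea, against 489, 268 and 305 FPKM, where the groups overlapped. Whether these rows share fragments through similar sequence was not tested.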
